A study of Homo sapiens with 9 samples.

Results

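Human chromosome 19 carries long runs of neighbouring genes for zinc finger proteins, and how these genes behaved in VCaP cells after knockdown of the long non-coding RNA IGF1R-AS1 is described here by position along the chromosome. A gene was a member if all of its exons were annotated on chromosome 19 and its symbol was ZNF or ZFP followed by a number. By this rule 248 of the 19918 genes in the count tables were members, 131 on the plus strand and 117 on the minus strand, and 232 of them had enough counts to be tested. VCaP is an established line of human prostate cancer cells that carries the TMPRSS2-ERG fusion. The cells were reverse-transfected with 100 pmol of a control siRNA or of 1 of 2 siRNAs, si025 and si033, both directed at exon 1 of IGF1R-AS1, and RNA was taken 72 h later. Each of the 3 groups had 3 libraries, with the siRNA as the one difference the labels give, and total RNA was sequenced with a strand-specific kit. The labels do not say whether the libraries of a group came from separate cultures, so p-values measure the spread between libraries only. IGF1R-AS1 itself was not analysed here.

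Most members encode C2H2 zinc finger proteins, in which each finger holds a zinc ion between a pair of cysteines and a pair of histidines and reads a few bases of DNA. Many carry a KRAB domain at the amino end, which recruits the co-repressor TRIM28 (KAP1). TRIM28 brings the histone methyltransferase SETDB1 and heterochromatin proteins to the bound site, and the best-known targets of such complexes are retrotransposons. The genes arose by repeated tandem duplication, so neighbours on chromosome 19 often resemble each other in sequence. By the symbol rule the set also holds a few genes of other kinds. ZFP36 (tristetraprolin) is one, a CCCH protein that binds AU-rich elements in mRNAs and promotes their decay.

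The 9 libraries held between 11649811 and 28492259 counts on genes, and the depth ranges of the 3 groups overlapped. The biological coefficient of variation over the 12810 genes tested was 4.13%. Levels are given below as CPM, counts scaled to the size of each library after TMM normalization, and differences as log2 fold changes from edgeR's quasi-likelihood test with its standard error (SE). A gene was called when its p-value, adjusted by Benjamini and Hochberg over all 12810 genes tested, was under 0.05. Both siRNA groups were compared with the same control libraries, so their values are set side by side and their likeness was not tested. The markers KLK3, HOXB13, FOLH1, KRT8, KRT18 and ERG of luminal prostate cells and of VCaP were above 0 in every library. These 6 genes, a list shortened after the values were seen, summed to 1970 to 2020 CPM in control, 2854 to 2879 CPM with si025 and 2104 to 2124 CPM with si033, so they too moved with the groups. Of 8 markers of other cells, KRT5 was at 0 in every library, and the list summed to 4.71 to 7.51 CPM in control, 5.92 to 7.44 CPM with si025 and 2.97 to 3.48 CPM with si033. The part of these shifts in the zinc finger values was not tested, and in bulk RNA fewer cells of a kind and less RNA per cell cannot be told apart.

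Member genes were on average lowly expressed. The median control level of the 232 tested members was 3.79 CPM per kb of exon, against 7.28 CPM per kb over all genes tested. ZNF146, a protein made almost wholly of fingers, had the highest level at 109 CPM per kb, and then came ZNF614 at 50.7, ZNF649 at 38.2, ZNF761 at 37.2, ZNF350 at 25.04, ZNF428 at 24.6, ZNF577 at 23.9 and ZNF613 at 23.5 CPM per kb. Of these 8 genes, 6 lie between ZNF175 and ZNF331 in the outer part of the long arm. The plot of control levels by chromosome order shows them in a group.

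**Figure D1:**
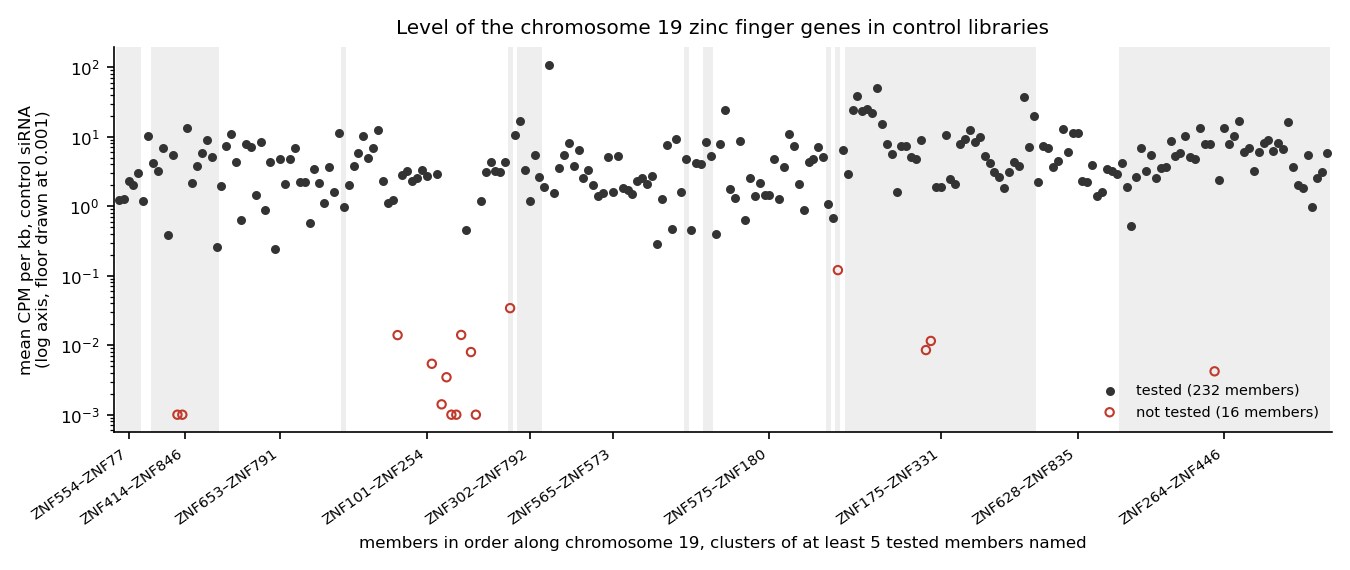
Mean level of each member in the 3 control libraries (TMM CPM per kb of exon, log axis with values of 0 drawn at the floor) in order of start along chromosome 19, with filled points for the 232 tested members, open points for the 16 others and grey bands that set clusters apart. ZNF146 stands highest at 109 CPM per kb, and 6 of the 8 highest members lie in the run from ZNF175 to ZNF331.

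The 16 members that were not tested had from 0 to 79 counts over the 9 libraries together. ZNF559-ZNF177, ZNF177, ZNF676 and ZNF729 had 0 counts in all 9 libraries. ZNF177 shares 97.6% of its exon bases with the read-through entry ZNF559-ZNF177, and read pairs on more than 1 gene are dropped by the counting program, so its 0 says nothing about its level. Of the 16, 9 lie between ZNF101 and ZNF254 next to the centromere on its short-arm side, among them ZNF85 with 15 counts, ZNF99 with 11, ZNF100 with 8, ZNF98 with 4, ZNF257 and ZNF728 with 2 each and ZNF208 with 1 over all 9 libraries. ZNF154, a gene known to be hypermethylated in many tumours, had 8 counts in all, ZNF114 had 54, ZNF578 11 and ZNF534 1. ZNF536, a repressor studied in neurons, had 79 and was at 0.409 CPM in control, 0.627 CPM with si025 and 0.443 CPM with si033 on average. Among all 248, 10 members share over 5% of their exon bases with another gene, and their counts are uncertain.

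With si033, more members rose than fell. Of the 232 tested members, 102 (43.97%) were called higher and 19 (8.19%) lower than control, while over all genes tested 26.9% were called higher and 27.8% lower. The median log2 fold change of the members was 0.16 and that of all genes tested 0.00. With si025 the same genes gave 65 higher (28.0%) and 44 lower (18.97%), against 32.9% higher and 28.8% lower over all genes tested, with a median of 0.02 for members and for all genes. Set directly against each other, 30 members (12.9%) were higher with si025 and 98 (42.2%) were higher with si033, where all genes gave 31.2% and 29.7%. The median difference, si025 minus si033, was -0.13 for members and -0.00 for all genes. Members had lower counts than the genes they are set against, with a median of 18.0 against 32.2 CPM over the 9 libraries. Their errors were wider, with a median SE of 0.083 against 0.067 with si025 and 0.081 against 0.068 with si033. The part of this in the shares called, here and in the runs below, was not tested.

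Summed over all members, the libraries of both siRNAs held more of these transcripts, and with si025 the excess lay mostly in 1 run of genes. The summed level was 6373, 6366 and 6516 CPM in the control libraries, 7068, 6733 and 7021 CPM with si025, and 7097, 7149 and 7257 CPM with si033. Every library of either siRNA was above every control library, and the lowest si033 library was above the highest si025 library. In raw counts the members took 0.623% to 0.630% of a control library, 0.680% to 0.717% of a library with si025 and 0.718% to 0.738% of a library with si033. Members' exons held less GC (median 43.2%) than those of all genes tested (48.7%), and with offsets for gene length and GC content the members' median was 0.06 with si025 and 0.19 with si033. Leaving out si025 replicate 2 also gave 0.06 for si025. A sum follows the abundant members. In the run from ZNF175 to ZNF331 it was 1910 ± 30.9 CPM (mean ± SD, n = 3) in control, 2415 ± 90.9 CPM with si025 and 2190 ± 51.1 CPM with si033, while over all members the means were 6418, 6941 and 7168 CPM. In the run from ZNF264 to ZNF446 the si025 mean was below that of control (1193 ± 16.7 against 1233 ± 7.68 CPM). By the median member, the log2 ratio to the control mean was 0.050, -0.018 and 0.056 in the 3 si025 libraries and 0.140, 0.152 and 0.174 in the 3 si033 libraries.

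On other chromosomes too, more zinc finger genes rose than fell with si033. Of 236 tested there, 86 were higher and 31 lower with a median of 0.10, and with si025 67 were higher and 46 lower with a median of 0.01. The other 712 tested genes of chromosome 19 gave 155 higher and 160 lower with si033 (median 0.01) and 219 higher and 213 lower with si025 (median -0.03). As shares, 36.4% of the zinc finger genes on other chromosomes were higher and 13.1% lower with si033. With si025 they were 28.4% and 19.5%. For the other genes of chromosome 19 the shares were 21.8% and 22.5% with si033 and 30.8% and 29.9% with si025. No test was run of the members against these groups. Without ZFP36 the members gave 102 higher and 18 lower with si033 and 64 higher and 44 lower with si025.

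**Figure D2:**
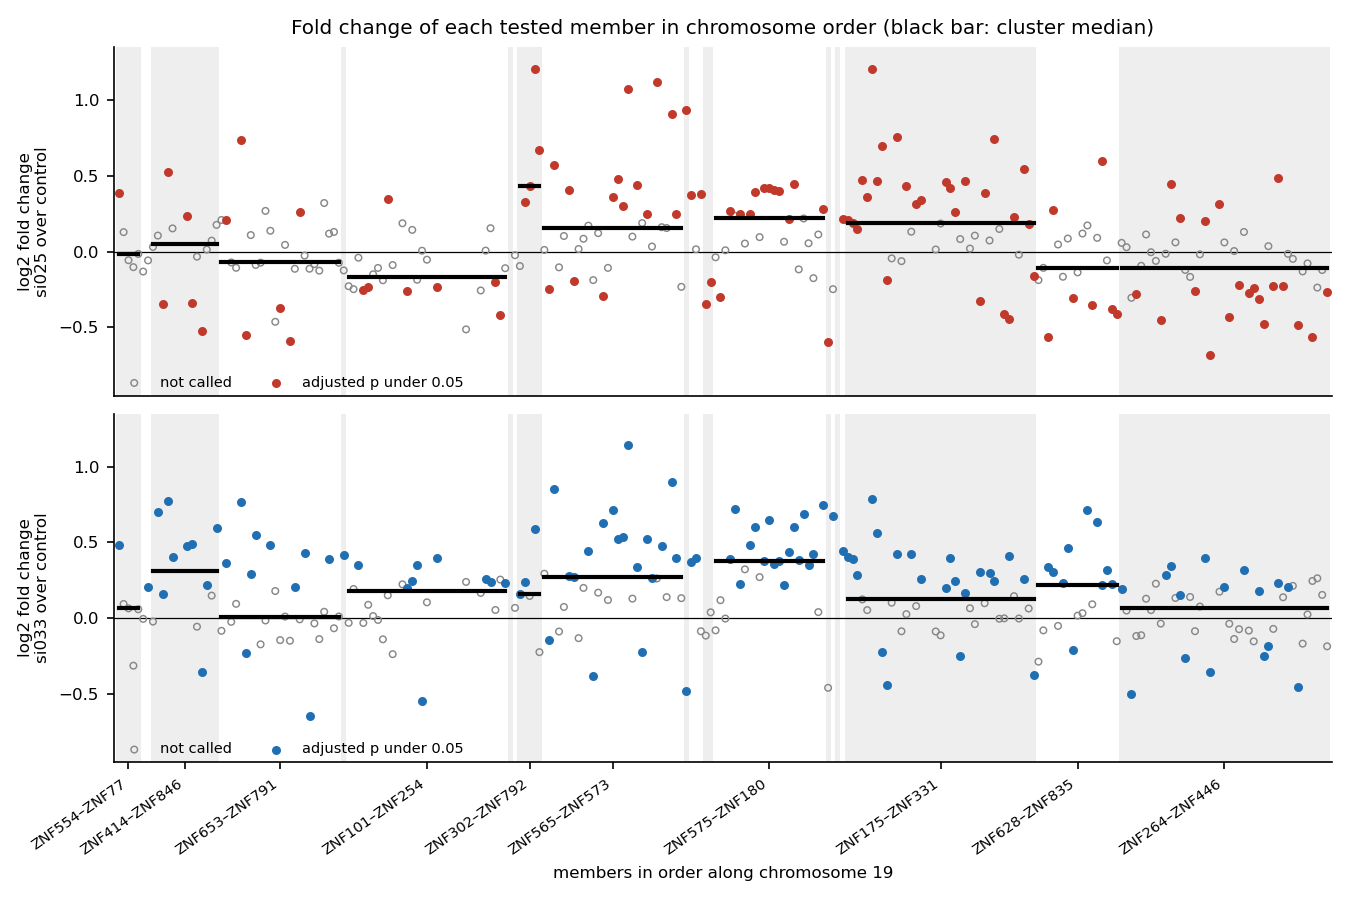
Log2 fold change of each tested member against control with si025 (upper panel) and si033 (lower panel) by rank along chromosome 19, with filled points for members with an adjusted p under 0.05, open points for the others and a black bar at each cluster's median. With si033 all 10 bars lie above 0, and with si025 5 do.

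Members were then grouped by position, starting a new cluster where the gap between neighbours was over 500 kb. This gave 21 clusters or single genes, of which 10 held at least 5 tested members and together 219 of the 232. With si033 the median log2 fold change was above 0 in all 10 clusters, from 0.01 in ZNF653 to ZNF791 up to 0.38 in ZNF575 to ZNF180. Leaving out control replicate 1 put the first of these on the other side of 0, at -0.0052. With si025 it was above 0 in 5 of 10, from -0.17 in ZNF101 to ZNF254 up to 0.43 in ZNF302 to ZNF792. The direct difference was above 0 in 2 of 10, ZNF302 to ZNF792 and ZNF175 to ZNF331. Neighbouring members of a cluster were weakly alike in fold change, with a Spearman correlation over 213 adjacent pairs of 0.24 with si025 and 0.11 with si033, given as a description since neighbours share libraries, base composition and part of their sequence.

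**Figure D3:**
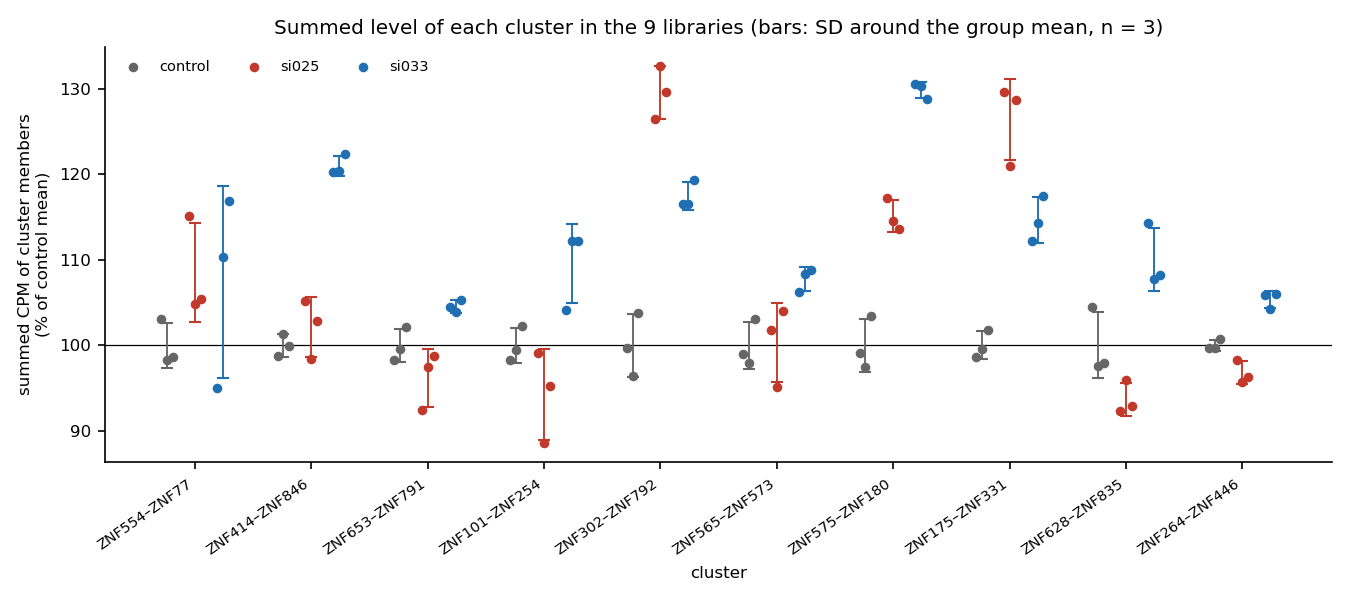
Summed CPM of the members of each of the 10 clusters in every library, as a percentage of the mean of the control libraries, with 1 point per library coloured by group and bars for the SD around the group mean (n = 3). The si025 points are the highest in ZNF175 to ZNF331 and ZNF302 to ZNF792. In ZNF554 to ZNF77 the groups overlap. The si033 points are the highest in all the other clusters, ZNF575 to ZNF180 among them.

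The run from ZNF575 to ZNF180 (chr19:43531805-44500539, build hg38) had the highest median with si033. There, 17 of its 23 members rose, the median was 0.38, and the remaining members did not pass the test. With si025, 11 rose and 1 fell, with a median of 0.22. The share that rose with si033 was 73.9%, against 26.9% of all genes tested. With si025 47.8% rose and 4.35% fell, against 32.9% and 28.8%. Between the siRNAs 10 members were higher with si033 (43.5%, against 29.7% of all genes). The summed level was 388, 382 and 405 CPM in control, 459, 449 and 445 CPM with si025 and 512, 511 and 505 CPM with si033, 3 ranges that did not overlap. The span also holds other genes, and the 7 of them that were tested had a median of -0.15 with si025 (2 higher, 4 lower) and -0.00 with si033 (1 higher, 1 lower).

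ZNF180, the last member of the run, was at 37.4, 37.04 and 40.9 CPM in control, 46.8, 48.6 and 45.7 CPM with si025 and 64.2, 66.5 and 64.5 CPM with si033. The 3 groups did not overlap, and the log2 fold change was 0.28 ± 0.06 with si025 (adjusted p = 0.000194) and 0.75 ± 0.06 with si033 (adjusted p = 1.08e-10). ZNF227, a KRAB member named here after its values were seen, was at 27.2, 24.9 and 29.9 CPM in control, 39.2, 36.9 and 37.2 CPM with si025 and 42.1, 43.3 and 41.03 CPM with si033. All libraries of both siRNAs were above all control libraries, with 0.44 ± 0.07 and 0.60 ± 0.07 on the log2 scale. At the start of the run ZNF575, at under 1 CPM in each library, and ZNF428, the only member with a single finger match, did not pass the test with either siRNA (log2 fold changes of -0.04 and 0.01 with si025 and -0.08 and -0.00 with si033). The heat map of this run shows each member in each library.

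**Figure D4:**
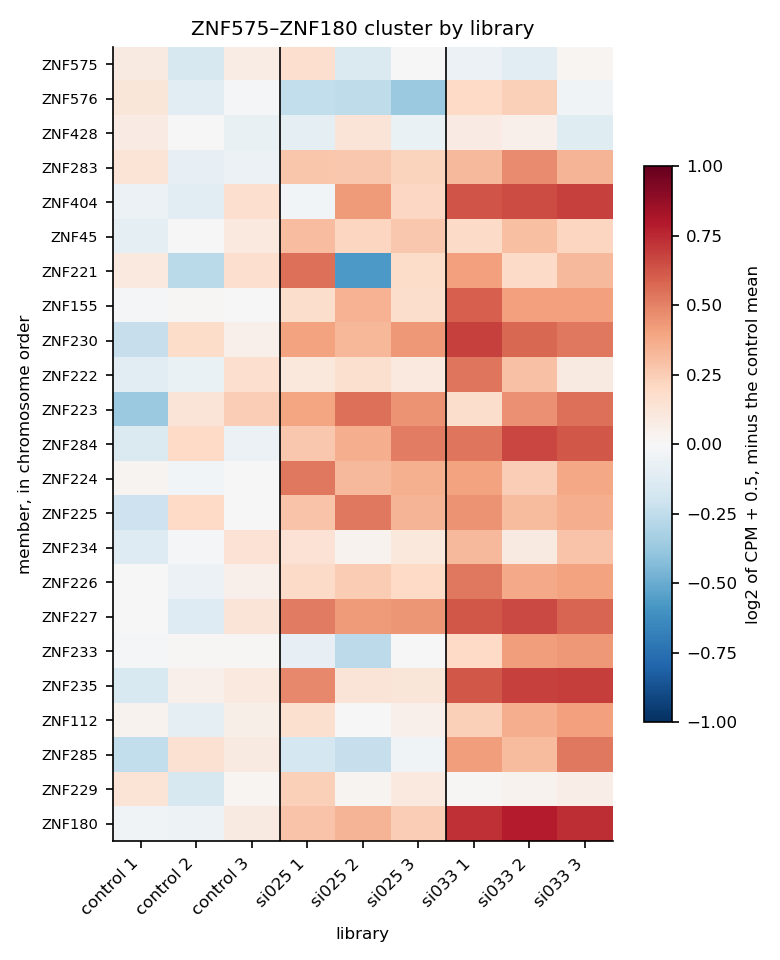
Heat map of the 23 members from ZNF575 to ZNF180 in chromosome order (rows) in the 9 libraries (columns), coloured by the log2 of CPM plus a pseudocount of 0.5 minus the control mean, red for higher and blue for lower. Most rows are red in all 3 si033 columns and paler red in the si025 columns, with 17 members called higher with si033 and 11 with si025.

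The run from ZNF175 to ZNF331 (chr19:51571237-53580269) had the highest summed level of the 10 and the most members called with si025. Of 37 tested members, 21 rose and 5 fell with si025 (median 0.19), and 17 rose and 4 fell with si033 (median 0.12). With si025 56.8% rose and 13.5% fell, against 32.9% and 28.8% of all genes tested. With si033 45.9% rose and 10.8% fell, against 26.9% and 27.8%. The direct comparison had 18 members higher with si025 (48.6%, against 31.2% of all genes) and 8 higher with si033 (21.6%, against 29.7%). Its members summed to 1884, 1903 and 1944 CPM in control, 2477, 2311 and 2458 CPM with si025 and 2143, 2183 and 2245 CPM with si033. Here the si025 libraries were above all others and the si033 libraries above control.

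ZNF615, a member with 19 finger matches, gave the smallest p-value of the set with both siRNAs. It was at 102, 103 and 101 CPM in control, 237, 223 and 246 CPM with si025 and 167, 182 and 179.7 CPM with si033. The groups stood well apart, with log2 fold changes of 1.20 ± 0.05 for si025 (adjusted p = 2.02e-15) and 0.79 ± 0.05 for si033 (adjusted p = 4.41e-12), and a difference of 0.42 ± 0.05 between them. Its neighbours on both sides were among the most abundant members. ZNF614 was at 230.0, 235 and 246 CPM in control, 329, 307 and 346 CPM with si025 and 323, 363 and 362 CPM with si033, a rise of 0.47 ± 0.05 and 0.56 ± 0.05 (adjusted p = 4.82e-08 and 3.53e-09). ZNF613 rose by 0.47 ± 0.05 with si025, and with si033 its value of 0.12 ± 0.05 did not pass (adjusted p = 0.058). Under 7 of 17 other settings the si033 value of ZNF613 did pass. ZNF350 (ZBRK1), a repressor known to bind BRCA1, rose by 0.36 ± 0.05 with si025 and was 0.05 ± 0.05 with si033 (adjusted p = 0.413). ZNF577 rose by 0.19 ± 0.05 and 0.39 ± 0.05, and ZNF761 by 0.55 ± 0.04 and 0.26 ± 0.04. For ZNF649 the si033 rise of 0.28 ± 0.06 passed (adjusted p = 0.000545), while the si025 value of 0.15 ± 0.06 was at the threshold (adjusted p = 0.0445) and missed it under 10 of 17 other settings, DESeq2 and leaving out any control library among them.

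Some members of the same run went the other way. ZNF432, between ZNF614 and ZNF841, was at 74.2, 77.1 and 77.8 CPM in control, 124, 124 and 123 CPM with si025 and 67.1, 60.9 and 68.2 CPM with si033. It rose with si025 and fell with si033, with no overlap of any groups. ZNF677, a gene known to be methylated in tumours, showed the reverse, with 10.5, 12.98 and 12.4 CPM in control, 9.19, 9.08 and 8.44 CPM with si025 and 15.8, 15.2 and 16.8 CPM with si033. ZNF331, an imprinted gene at the end of the run, fell by 0.16 with si025 (adjusted p = 0.00323) and by 0.38 with si033 (adjusted p = 2e-07). ZNF841 fell by 0.44 with si033 (adjusted p = 4.92e-06), and its si025 value of -0.18 ± 0.06 (adjusted p = 0.0155) missed the threshold without si025 replicate 2 or without control replicate 1. ZNF175, which opens the run, rose by 0.40 ± 0.08 with si033, and its si025 value of 0.21 ± 0.08 (adjusted p = 0.0356) was lost under 6 settings.

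The run from ZNF302 to ZNF792 (chr19:34677619-34964049) has only 5 members. With si025 4 rose (median 0.43) and with si033 3 did (median 0.16). As shares of 5 genes these are 80.0% and 60.0%, against 32.9% and 26.9% of all genes tested. ZNF30, a KRAB member, was at 20.95, 18.9 and 23.1 CPM in control, 47.7, 49.7 and 49.7 CPM with si025 and 33.04, 31.4 and 31.9 CPM with si033. The 3 groups did not overlap, with a log2 fold change of 1.21 ± 0.07 for si025 (adjusted p = 3.31e-13) and of 0.59 ± 0.07 for si033 (adjusted p = 1.93e-07). ZNF792 was at 10.8, 10.9 and 9.31 CPM in control, 16.6, 16.7 and 15.4 CPM with si025 and 7.91, 9.67 and 8.59 CPM with si033, a rise of 0.67 ± 0.09 with si025 and a value of -0.22 ± 0.10 with si033 (adjusted p = 0.0729). ZNF302 was -0.10 ± 0.05 with si025 (adjusted p = 0.113) and rose by 0.16 ± 0.05 with si033 (adjusted p = 0.0119, lost without si033 replicate 3).

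Between ZNF565 and ZNF573 (chr19:36182060-37779626) 11 of 29 members rose and 3 fell with si025 (median 0.16), and 15 rose and 3 fell with si033 (median 0.27). The share that rose with si025, 37.9%, was near the 32.9% of all genes tested, and with si033 it was 51.7% against 26.9%. The run holds the pair ZNF585A and ZNF585B, copies of each other that both have 21 finger matches and lie next to each other. ZNF585B was at 10.04, 10.8 and 11.1 CPM in control, 25.7, 22.3 and 20.7 CPM with si025 and 25.1, 22.9 and 23.4 CPM with si033. Every library of either siRNA was above every control library, with log2 fold changes of 1.07 ± 0.09 (adjusted p = 2.5e-10) and 1.14 ± 0.09 (adjusted p = 1.29e-10), and the 2 siRNAs differed by -0.07 ± 0.08 (adjusted p = 0.453). ZNF585A, named here for the pair, was at 12.9 ± 0.462, 15.6 ± 0.705, 18.3 ± 1.13 CPM (mean ± SD, n = 3) in control, si025 and si033, a rise of 0.30 ± 0.08 and 0.53 ± 0.08 (adjusted p = 0.00269 and 5.51e-06). Of the 50-base stretches in the exons of ZNF585B, 19.3% also occur in ZNF585A, so reads from such stretches may not be placed uniquely and the split between the copies is uncertain.

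Other members of this run differed between the siRNAs. ZNF345 was at 7.59, 6.23 and 6.88 CPM in control, 6.15, 5.01 and 5.79 CPM with si025 and 11.1, 10.8 and 10.2 CPM with si033. The si033 libraries were above all others, a rise of 0.63 ± 0.11 (adjusted p = 6.25e-05), and the si025 value of -0.29 ± 0.12 (adjusted p = 0.043) was lost under 7 of 17 settings, for example without control replicate 1. ZNF540, at about 1 CPM, was 1.05, 0.797 and 1.16 CPM in control, 3.19, 1.94 and 1.90 CPM with si025 and 1.15, 1.24 and 1.28 CPM with si033, a rise of 1.12 ± 0.25 with si025 and a value of 0.26 ± 0.28 with si033 (adjusted p = 0.447). ZNF781 was at 1.13, 2.03 and 1.27 CPM, 2.41, 2.83 and 2.87 CPM and 3.71, 2.71 and 2.17 CPM in the same order and rose by 0.91 ± 0.24 and 0.90 ± 0.24. ZFP14 rose by 0.57 ± 0.11 and 0.85 ± 0.11. ZNF146, the most abundant member per length, fell, from 434 ± 11.7, 366 ± 14.03, 393 ± 0.281 CPM in control, si025 and si033, by 0.25 with si025 (adjusted p = 1.52e-05) and 0.14 with si033 (adjusted p = 0.00477). ZNF850 fell by 0.38 with si033 and was -0.19 ± 0.08 with si025 (adjusted p = 0.0579), a value that passed under 5 of 17 other settings. ZFP30 and ZFP82 did not pass with either siRNA (0.16 and 0.14, -0.10 and -0.09), and neither did ZNF565 and ZNF573 at the ends of the run. Under other settings ZFP30 passed in 5 of 17 with si025 and in 2 with si033, and ZNF565 in 2 with si033.

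In 4 of the larger runs more members fell than rose with si025, and more rose than fell with si033. With si025 the shares that fell were at most 35.7%, near the 28.8% of all genes tested, and the shares that rose, 4.17% to 16.7%, were below 32.9%. With si033 the shares that fell, 4.17% to 14.3%, were below 27.8%, and those that rose were 23.8% to 66.7% against 26.9%. Between ZNF101 and ZNF254 (chr19:19668153-24129968), 6 of 24 tested members fell and 1 rose with si025 (median -0.17), while 8 rose and 1 fell with si033 (median 0.18), and 15 were higher with si033 than with si025 against 1. The run from ZNF414 to ZNF846 (chr19:8510578-9786174) was near even with si025, at 2 higher and 3 lower (median 0.05), and gave 8 higher and 1 lower with si033 (median 0.31) among 12 tested. Between ZNF628 and ZNF835 (chr19:55476332-56671783), of 17 members 2 rose and 5 fell with si025 (median -0.11) and 9 rose and 1 fell with si033 (median 0.22). The last run of the arm, ZNF264 to ZNF446 (chr19:57191500-58489533), had 5 higher and 15 lower with si025 (median -0.11) and 10 higher and 6 lower with si033 (median 0.07) among 42 tested. Its summed level was 1228, 1228 and 1242 CPM in control, 1212, 1180 and 1187 CPM with si025 and 1306, 1285 and 1306 CPM with si033, so the si025 libraries lay below control and the si033 libraries above. Set directly against each other, 6, 9 and 21 members of these last 3 runs were higher with si033, and 0, 1 and 3 were higher with si025. In all 4 runs the share higher with si033 was above the 29.7% of all genes tested. The share higher with si025 was below the 31.2% of all genes tested. Other genes inside the same spans gave values of like size in places. The 9 tested between ZNF628 and ZNF835 had a median of -0.15 with si025 (1 higher, 3 lower) and 0.07 with si033 (2 higher, 2 lower), and of -0.29 between the siRNAs (1 higher, 5 lower with si025). The 9 between ZNF264 and ZNF446 had medians of 0.22 with si025 (3 higher, 1 lower), 0.19 with si033 (4 higher, 0 lower) and -0.27 between the siRNAs (0 higher, 5 lower with si025).

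The run from ZNF653 to ZNF791 (chr19:11483427-12631921) had medians close to 0 with both siRNAs. Of its 25 members 3 rose and 3 fell with si025 (median -0.07) and 8 rose and 2 fell with si033 (median 0.01). With si025 both shares were below those of all genes tested, 32.9% higher and 28.8% lower. With si033 the share that rose was near the 26.9% of all genes tested, and the share that fell was below 27.8%. The si025 median changed sign to 0.06 with offsets for gene length and GC content and to 0.02 without control replicate 3. The small run from ZNF554 to ZNF77 (chr19:2819874-2944971) had 1 call in each comparison, ZNF554, which rose by 0.39 ± 0.12 and 0.48 ± 0.12. Its si025 median of -0.02 was 0.07 with the same offsets and also 0.07 without si025 replicate 2.

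The first and last members of these runs were named by their place. ZNF101 did not pass with either siRNA (-0.23 and -0.03), and ZNF254 rose by 0.23 ± 0.06 with si033 (adjusted p = 0.004) and was -0.11 with si025. ZNF264 rose by 0.19 ± 0.05 with si033 (adjusted p = 0.00351) and was 0.06 with si025. ZNF446 and ZNF835 fell with si025, by 0.27 (adjusted p = 0.0057, lost without si025 replicate 3) and 0.41 (adjusted p = 0.00286), and were -0.19 and -0.15 with si033. ZNF846, at about 2 CPM in control, was 0.60 ± 0.21 with si033 (adjusted p = 0.0193, lost under 4 settings). ZNF414, ZNF628, ZNF653, ZNF791 and ZNF77 did not pass with either siRNA, with log2 fold changes from -0.29 for ZNF628 with si033 to 0.21 for ZNF653 with si025.

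Among the members of these runs, ZNF551 fell furthest with si025. It was at 30.5, 29.2 and 29.4 CPM in control, 18.2, 18.6 and 18.5 CPM with si025 and 23.6, 22.7 and 23.2 CPM with si033. The groups did not overlap, and ZNF551 fell by 0.68 with si025 (adjusted p = 2.39e-09) and by 0.36 with si033 (adjusted p = 3.43e-05) on the log2 scale. ZNF440 was at 39.02, 42.8 and 42.3 CPM in control, 29.6, 27.8 and 28.03 CPM with si025 and 35.4, 34.1 and 36.2 CPM with si033, and fell by 0.55 and 0.23. Its neighbour ZNF491 rose by 0.74 ± 0.17 and 0.77 ± 0.17 from about 3 CPM, and ZNF625 fell by 0.59 with si025 and was -0.15 ± 0.13 with si033 (adjusted p = 0.352). ZNF560 fell by 0.34 with si025 (adjusted p = 0.0111, lost without si025 replicate 3 or control replicate 3) and rose by 0.49 ± 0.10 with si033. ZNF699 rose by 0.78 ± 0.19 with si033, and its si025 value of 0.52 ± 0.19 (adjusted p = 0.0215) was lost with DESeq2 and without si025 replicate 1 or control replicate 3. ZNF497 was -0.48 ± 0.16 and -0.46 ± 0.17 (adjusted p = 0.0141 and 0.0232), calls that were lost without control replicate 1.

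For members with known targets the differences were small. ZNF91, which represses SVA and early L1 elements, was at 39.02, 38.3 and 33.5 CPM in control, 40.8, 34.5 and 35.7 CPM with si025 and 41.4, 46.2 and 43.6 CPM with si033. The si033 libraries were the highest, by a narrow margin over 1 si025 library, a rise of 0.26 ± 0.07 (adjusted p = 0.00338, lost without control replicate 3), and with si025 the value was 0.01 ± 0.07 (adjusted p = 0.941). ZNF93, which represses other L1 elements, was -0.23 ± 0.09 with si025 (adjusted p = 0.0284, lost under 5 settings) and 0.09 ± 0.09 with si033 (adjusted p = 0.41). ZNF274, which binds the 3′ ends of zinc finger genes and recruits SETDB1 there, was -0.23 ± 0.08 with si025 (adjusted p = 0.0153, lost without si025 replicate 1 or control replicate 3) and 0.14 ± 0.08 with si033 (adjusted p = 0.13). Outside that group, ZFP28 rose by 0.60 ± 0.08 with si025 (adjusted p = 4.9e-07), and its si033 value of 0.22 ± 0.08 (adjusted p = 0.0259) was lost with DESeq2 and without si033 replicate 3 or control replicate 3.

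ZFP36, which is no DNA-binding zinc finger gene, gave the widest difference between the siRNAs. It was at 7.59, 9.35 and 8.11 CPM in control, 15.8, 16.9 and 15.3 CPM with si025 and 5.77, 5.88 and 6.18 CPM with si033. All si025 libraries were above control and all si033 libraries below it, with log2 fold changes of 0.94 ± 0.10 (adjusted p = 1.85e-08) and -0.48 ± 0.11 (adjusted p = 0.00106). ZNF541, known as a germ-cell chromatin protein, rose by 0.67 ± 0.13 with si033 and was -0.25 ± 0.15 with si025 (adjusted p = 0.147). ZNF524 was at 10.1, 9.79 and 9.39 CPM in control, 6.15, 7.29 and 6.19 CPM with si025 and 12.9, 13.2 and 11.3 CPM with si033, lower than control with si025 and higher with si033 with no overlap. ZNF132, a gene known to be silenced in prostate tumours, was -0.57 ± 0.19 with si025 (adjusted p = 0.0117, lost without si025 replicate 2 or 3) and 0.25 ± 0.17 with si033 (adjusted p = 0.237). ZNF296 was -0.60 ± 0.24 with si025 (adjusted p = 0.0384), a call lost under 8 settings, and -0.46 ± 0.24 with si033 (adjusted p = 0.113).

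**Figure D5:**
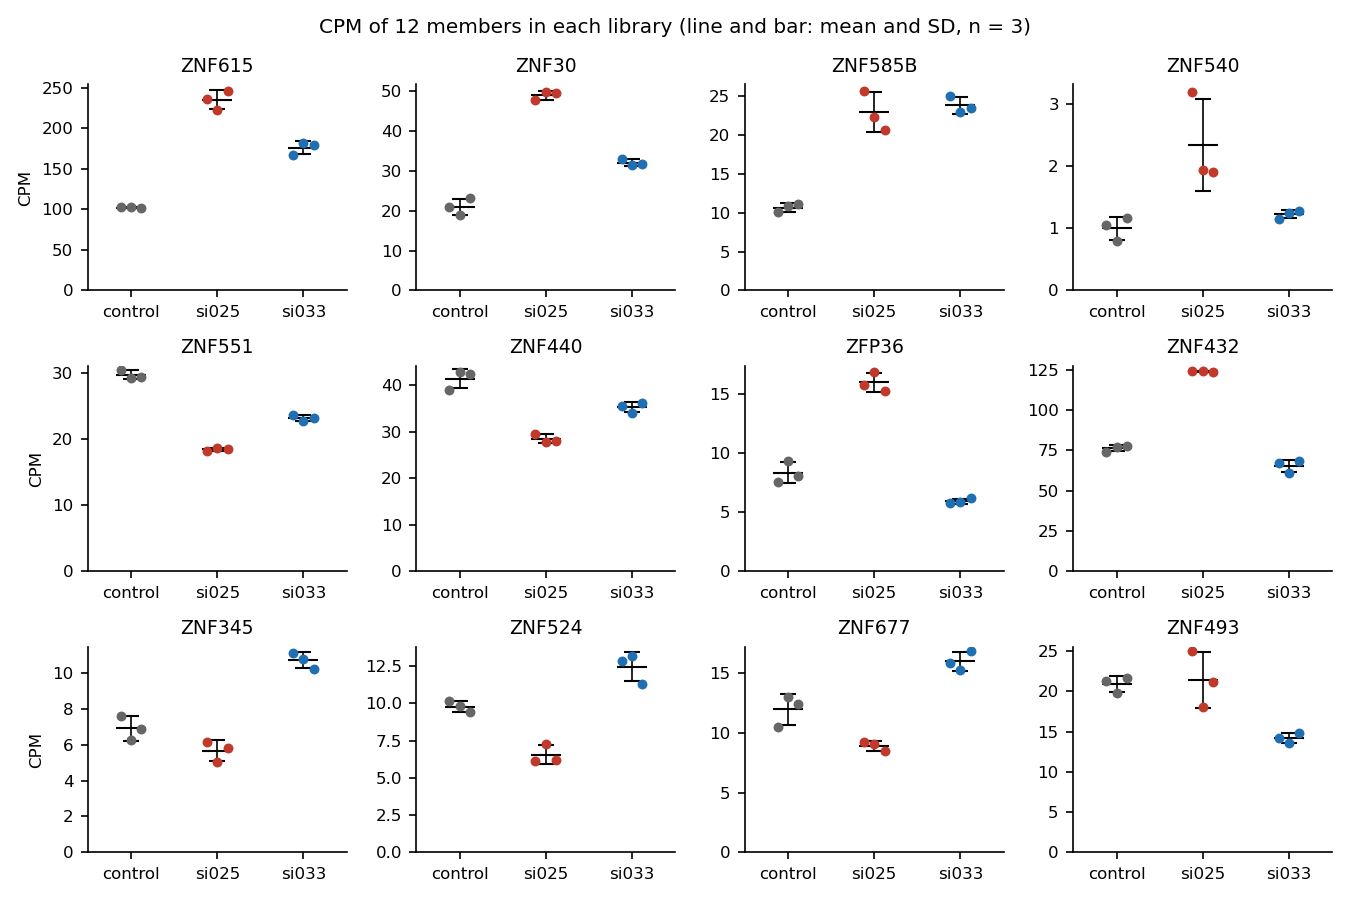
CPM of 12 members in every library (linear axes from 0, 1 panel per gene), with 1 point per library coloured by group and a line and bar for the group mean and SD (n = 3). ZNF615, ZNF30 and ZNF585B are higher with both siRNAs, ZNF551 and ZNF440 are lower with both, and ZFP36 and ZNF432 are higher with si025 and lower with si033.

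Members were also described by their proteins, translated from the annotated coding sequence for 247 of 248. They held a median of 12 C2H2 finger matches, with quartiles of 9 and 15 and a highest count of 36, and ZFP36 and the read-through entry ZNF816-ZNF321P held none. A KRAB-like start was found in 134 of them. With si033 the 123 tested members with it had a median of 0.23 (65 higher, 10 lower), and the 108 without it 0.08 (36 higher, 9 lower). With si025 the medians were 0.07 (40 higher, 19 lower) and -0.06 (24 higher, 25 lower). The shares higher with si025 were 32.5% with and 22.2% without it, against 32.9% of all genes tested. The shares lower were 15.4% and 23.1%, against 28.8%. For si033 the shares higher were 52.8% and 33.3%, against 26.9%, and those lower 8.13% and 8.33%, against 27.8%. A wider pattern, chosen after the first one missed a whole run, found 155 and gave 0.22 and 0.07 with si033 and 0.06 and -0.04 with si025. By number of fingers, the si033 median was -0.00 in 21 members with 0 to 6, 0.13 in 40 with 7 to 9, 0.20 in 58 with 10 to 12, 0.16 in 59 with 13 to 15 and 0.22 in 53 with 16 or more. Fold changes also went with exon GC over the 232 members (Spearman -0.23 with si025 and -0.19 with si033, as a description), and the separate parts of these features were not tested. By strand the si033 median was 0.19 on plus and 0.15 on minus.

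For 215 members a promoter of 300 bases, from 250 before to 50 after the RefSeq start (build GRCh38.p14), was searched on both strands for short motifs. CCGGAA, a core that ETS factors such as ERG can bind, was in 54.9% of them, in 17.6% of all 27305 promoters of the table and in 44.8% of zinc finger promoters on other chromosomes. CCAAT, read by NF-Y, was in 52.6% (35.7% of all), and GGGCGG, a GC box, in 67.0% (44.6% of all). Among promoters of genes tested here the shares were 29.2%, 36.6% and 70.0%. The fold changes of members with and without CCGGAA were close, with medians of 0.15 and 0.14 with si033 and 0.02 and -0.02 with si025. Members with CCAAT had lower medians than those without it, 0.13 against 0.19 with si033 and -0.06 against 0.08 with si025. So did members with GGGCGG, at 0.10 against 0.20 with si033 and -0.02 against 0.10 with si025. The parts of these motifs were not tested. GCGCATGC, read by NRF1, was in 9 member promoters (4.19%, against 3.27% of all, 5.42% of those of genes tested and 7.17% of zinc finger promoters on other chromosomes). Those members had medians of 0.40 with si033 and 0.30 with si025, against 0.15 and 0.01 in the 197 tested members without it. The 9 include the copies ZNF585A and ZNF585B, and the part of the motif was not tested. ACTACAA, part of an element read by ZNF143, was in 11 (5.12%, against 2.95%), CACGTG, an E-box, in 9 (4.19%, against 7.43%) and TGACGTCA, a cAMP response element, in 7. A match describes the letters in this window only.

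The ETS core, the CCAAT box and the GC box stood together in 20.9% of member promoters and in 3.85% of the table. This was not counted for genes tested or for zinc finger genes on other chromosomes. In both, each motif alone was commoner than in the table (44.8%, 43.5% and 60.1% for the zinc finger genes). Between ZNF101 and ZNF254 the 3 stood together in 16 of 26 promoters (61.5%), and in at most 30.0% in any other run. Promoters of that run were also the most alike, with a median identity of 76.2% over 325 pairs, against 50.6% to 56.1% in the other 9 runs, and the poorest in CpG, with a median of 10 against 16 to 29.5. In 9 member promoters, all in that run, the GC box and the reverse complement TTCCGG were 1 base apart, a spacing found in 22 of the table's promoters (0.0806%). The 160 bases before the start of 4 of its genes show this shared layout, with CCAAT in 1 or 2 copies and TTCCGG near the start, where ZNF493 alone of the 4 lacks the adjoining GGGCGG. They were taken from chr19:21836183-21836342 for ZNF43 (minus strand), chr19:23395472-23395631 for ZNF91 (minus), chr19:23914726-23914885 for ZNF726 (plus) and chr19:21396973-21397132 for ZNF493 (plus), each reads 5′ to 3′ towards the start, and capitals mark these 3 motifs or those of ZNF143 and NRF1, in either orientation.
ZNF43: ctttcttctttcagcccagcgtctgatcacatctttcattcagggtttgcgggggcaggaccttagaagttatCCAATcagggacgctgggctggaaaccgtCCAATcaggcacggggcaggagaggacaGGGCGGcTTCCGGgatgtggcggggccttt
ZNF91: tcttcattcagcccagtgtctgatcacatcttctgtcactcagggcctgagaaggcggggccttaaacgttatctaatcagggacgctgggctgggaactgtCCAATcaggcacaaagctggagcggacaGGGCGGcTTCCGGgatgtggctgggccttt
ZNF726: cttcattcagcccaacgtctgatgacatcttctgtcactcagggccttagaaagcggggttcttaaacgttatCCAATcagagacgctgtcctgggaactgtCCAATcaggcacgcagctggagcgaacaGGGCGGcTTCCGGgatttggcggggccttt
ZNF493: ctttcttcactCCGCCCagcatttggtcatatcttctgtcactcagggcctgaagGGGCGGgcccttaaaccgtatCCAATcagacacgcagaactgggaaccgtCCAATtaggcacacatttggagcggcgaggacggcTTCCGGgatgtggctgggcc
The promoters of ZNF43 and ZNF91 were 79.0% identical.

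With similar letters before their starts, these 4 genes did not move alike. ZNF43, named here for its sequence, was at 31.9, 37.8 and 36.04 CPM in control, 31.6, 29.4 and 29.8 CPM with si025 and 46.3, 46.2 and 47.04 CPM with si033. It fell by 0.23 with si025 (adjusted p = 0.00321) and rose by 0.40 ± 0.06 with si033 (adjusted p = 9.08e-06), with all si033 libraries above control. ZNF726, also named for its sequence, was -0.42 ± 0.15 with si025 (adjusted p = 0.0181) and 0.25 ± 0.14 with si033 (adjusted p = 0.13). The calls of ZNF43 and ZNF726 were not followed through the other settings. ZNF493 was at 20.9 ± 0.982, 21.4 ± 3.50, 14.2 ± 0.629 CPM (mean ± SD, n = 3) in control, si025 and si033. It fell by 0.55 with si033 (adjusted p = 3.55e-05), with all si033 libraries under control, and was 0.01 ± 0.09 with si025 (adjusted p = 0.957).

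Promoters of other runs are laid out differently. The next 5 sequences are shown because their genes carry the results above. They lie at chr19:44212372-44212531 for ZNF227 (plus strand), chr19:44500523-44500682 for ZNF180 (minus), chr19:37172696-37172855 for ZNF585A (minus), chr19:37210537-37210696 for ZNF585B (minus) and chr19:52008212-52008371 for ZNF615 (minus), with capitals as before.
ZNF227: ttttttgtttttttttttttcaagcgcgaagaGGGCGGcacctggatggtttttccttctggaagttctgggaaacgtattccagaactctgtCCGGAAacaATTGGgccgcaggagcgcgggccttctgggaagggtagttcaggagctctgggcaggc
ZNF180: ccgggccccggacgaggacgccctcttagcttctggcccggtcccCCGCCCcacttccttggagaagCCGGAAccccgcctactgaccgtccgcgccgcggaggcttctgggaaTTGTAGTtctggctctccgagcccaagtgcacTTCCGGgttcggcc
ZNF585A: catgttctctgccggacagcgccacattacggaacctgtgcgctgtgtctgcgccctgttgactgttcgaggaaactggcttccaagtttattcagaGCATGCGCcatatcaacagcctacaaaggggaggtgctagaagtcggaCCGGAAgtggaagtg
ZNF585B: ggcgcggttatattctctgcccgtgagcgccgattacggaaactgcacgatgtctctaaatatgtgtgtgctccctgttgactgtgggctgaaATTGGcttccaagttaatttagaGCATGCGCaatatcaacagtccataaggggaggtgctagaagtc
ZNF615: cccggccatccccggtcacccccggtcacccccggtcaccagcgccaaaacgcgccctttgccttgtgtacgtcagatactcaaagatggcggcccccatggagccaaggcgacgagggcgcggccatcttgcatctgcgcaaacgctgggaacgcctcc
The RefSeq start used for ZNF227 and for ZNF43 lies inside the span of the gene in the count tables, which also counts exons of longer transcripts.

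ZNF227 and ZNF180, in the same run, were 48.9% identical over the promoter window, while the copies ZNF585A and ZNF585B were 73.4% identical and both hold GCGCATGC as its reverse complement. ZNF585A holds CCGGAA close to the start and ZNF585B does not within these 160 bases. In ZNF615 none of the 5 motifs occurs in the printed stretch.

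Among 24 listed genes of co-repression and heterochromatin, more fell than rose. The list holds factors of the KRAB pathway, general chromatin factors such as UHRF1, DNMT1, HDAC1 and ATRX, and ZNF274, itself a member. Of the 22 tested, 14 (63.6%) fell and 1 rose with si025 (median -0.22, against 0.02 for all genes tested), while 10 (45.5%) fell and 2 rose with si033 (median -0.07, against 0.00). Over all genes tested 28.8% and 27.8% fell. Those that rose were 4.55% and 9.09% of the 22, against 32.9% and 26.9% of all genes tested. UHRF1, needed to maintain DNA methylation, fell by 1.07 and 0.53. TRIM28, the shared co-repressor, had a mean ± SD of 582 ± 22.9 CPM over the 3 control libraries, 437 ± 16.3 CPM over those of si025 and 482 ± 20.6 CPM over those of si033, and fell by 0.41 and 0.27 on the log2 scale (adjusted p = 3.09e-08 and 1.67e-05). The heterochromatin protein genes CBX5 and CBX3 fell by 0.49 and 0.79 with si025 and by 0.62 and 0.41 with si033. SETDB1, the methyltransferase, did not pass with either (-0.06 with adjusted p = 0.283, and 0.07 with adjusted p = 0.259). SMARCAD1, a chromatin remodeller, rose by 0.31 and 0.20.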

How the data were processed

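Total RNA of VCaP cells was sequenced in 9 libraries, 3 for each siRNA. The authors aligned reads with HISAT2 2.1.0 and deposited counts of read pairs per gene from featureCounts 1.5.2 on hg38 with strand used, and the paper and the file headers differ on the annotation (GENCODE or RefSeq), as the labels and the paper do on the extraction kit. From these deposited counts, genes passing edgeR's filterByExpr (12810) were fitted with edgeR 4.0.16 in R 4.3.3 (TMM, quasi-likelihood, 3 group means over all 9 libraries). P-values were adjusted over all genes tested. The script was tested on simulated data. The members and lists were chosen with earlier results of these data known.

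Genes were named as the 8 with the highest control level per kb, the 6 most changed each way per comparison among called members at or above 1 CPM whose libraries did not overlap, the first and last of each run, a list of 10 by name, and the 5 with the widest opposite calls. Any other member with a fold change in the text is said there to be named for its values, its pair or its sequence. Apart from ZNF560, these other members were not followed through the other settings listed below.

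Exon GC, fingers (C, 2 to 4 residues, C, 12 residues, H, 3 to 5 residues, H) and KRAB-like starts within 150 residues came from hg38 and the GENCODE coding sequence of each gene. Promoters came from RefSeq, and 215 members matched. Identity was scored by global alignment with Biopython 1.88. Levels between genes are per kb of exon. Depth ran from 11649811 to 28492259 counts, and with 3 libraries a group small changes in genes of few counts cannot be detected. Other settings tried were other normalizations, DESeq2 1.42.0, no filter, only the groups compared, the replicate block, length and GC offsets (mgcv 1.9.3), cluster gaps of 250 kb and 1000 kb, and leaving out each library. The replicate numbers were checked and do not pair the libraries. The summed level of the whole luminal marker list is not reported here.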

Additional observations from a re-analysis of the deposited data

Results flagged for a closer look

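For 13 of the 232 tested members the siRNAs gave called changes in opposite directions. Over all genes tested 32.9% were called higher and 28.8% lower with si025, and 26.9% and 27.8% with si033. How many of all genes had opposite calls was not counted, so the 13 are a description. The difference between the siRNAs, si025 minus si033, was called for all 13 by the same edgeR quasi-likelihood test (Benjamini-Hochberg adjustment over all genes). Picking members with opposite calls all but fixed this outcome, so these p-values add no separate support. ZFP36 had a difference of 1.42 on the log2 scale (adjusted p = 3.54e-11), higher than control in 3 of 3 si025 libraries and lower in 3 of 3 si033 libraries. ZNF432 had a difference of 0.92 (adjusted p = 2e-13) with the same directions. ZNF345 had -0.92 (adjusted p = 3.24e-07), ZNF524 -0.90 (adjusted p = 1.64e-07) and ZNF677 -0.86 (adjusted p = 3.47e-08), each lower with si025 and higher with si033. The other 8, named here for this pattern, were also lower with si025 and higher with si033. The difference was -0.83 (adjusted p = 4.12e-07) for ZNF560, -0.63 (adjusted p = 1.53e-08) for ZNF816-ZNF321P, -0.63 (adjusted p = 7.37e-09) for ZNF43 and -0.61 (adjusted p = 1.22e-06) for ZNF71. It was -0.51 (adjusted p = 1.81e-07) for ZNF317, -0.49 (adjusted p = 2.41e-06) for ZNF418, -0.47 (adjusted p = 1.02e-07) for ZNF529 and -0.46 (adjusted p = 6.67e-05) for ZNF714. ZNF816-ZNF321P is a readthrough locus that shares exons with ZNF816, so its counts are uncertain. The si025 call of ZNF345 missed the threshold under 7 of 17 settings. Of the other 8, only ZNF560 was followed through these settings.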

How the results depend on the processing

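No count of members called moved by over 1.5 times under any of the settings: with si025 54 to 85 were higher and 37 to 52 lower, with si033 88 to 122 and 15 to 22, and between the siRNAs 27 to 38 and 72 to 106. With the replicate block, fitted although same-numbered libraries did not deviate together, the counts were 67 and 43, 104 and 19, and 30 and 98. Of 174 results for named members, 131 kept their call in all 17 settings, and of 2957 alternative values 76 lost a call and 58 gained one. Gained calls are given by gene above only for ZNF613, ZNF850, ZFP30 and ZNF565. All members with length and GC offsets had medians of 0.062 with si025 and 0.19 with si033, and 0.19 with si033 after upper quartile normalization. With those offsets the si025 medians were 0.072 in ZNF554 to ZNF77, 0.057 in ZNF653 to ZNF791 (both changed sign), -0.051 in ZNF101 to ZNF254, 0.28 in ZNF175 to ZNF331 and -0.14 in ZNF628 to ZNF835, the si033 medians 0.058 in ZNF653 to ZNF791, 0.27 in ZNF101 to ZNF254, 0.17 in ZNF175 to ZNF331 and 0.082 in ZNF264 to ZNF446, and the differences between the siRNAs -0.15 in ZNF575 to ZNF180 and -0.32 in ZNF628 to ZNF835. A cluster gap of 250 kb, which splits runs, gave 0.23 with si033 and -0.34 for the difference in ZNF101 to ZNF254, and 0.15 with si033 in ZNF628 to ZNF835. A gap of 1000 kb, which joins them, gave 0.21 with si033 in ZNF414 to ZNF846, and in the joined ZNF628 to ZNF835 and ZNF264 to ZNF446 0.092 with si033 and -0.15 for the difference. For ZNF264 to ZNF446 the si033 median was 0.094 with upper quartile normalization and 0.073 with no filter. The cause of these shifts was not tested. Leaving out 1 library, the members' median ranged from 0.011 (without control replicate 2) to 0.055 (without si025 replicate 2) with si025 and from -0.15 to -0.10 for the difference. For si025 it ranged from -0.043 to 0.070 in ZNF554 to ZNF77, -0.084 to 0.022 in ZNF653 to ZNF791, 0.10 (without si025 replicate 3) to 0.20 in ZNF565 to ZNF573, -0.16 (without si025 replicate 2) to -0.044 (without control replicate 1) in ZNF628 to ZNF835 and -0.15 to -0.075 in ZNF264 to ZNF446. For si033 it ranged from 0.11 (without si033 replicate 3) to 0.23 in ZNF101 to ZNF254, 0.14 to 0.25 (without control replicate 1) in ZNF302 to ZNF792, 0.22 to 0.32 in ZNF565 to ZNF573, 0.12 to 0.17 in ZNF175 to ZNF331 and 0.064 to 0.094 in ZNF264 to ZNF446. For the difference it ranged from -0.26 to -0.18 in ZNF414 to ZNF846, 0.14 (without si025 replicate 3) to 0.37 in ZNF302 to ZNF792, -0.24 to -0.17 in ZNF575 to ZNF180, 0.077 (without si025 replicate 1) to 0.17 in ZNF175 to ZNF331 and -0.17 to -0.12 in ZNF264 to ZNF446. Members of few counts, such as ZNF540 and ZNF296, have the widest errors.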
